A study of Arabidopsis thaliana with 12 samples.

Results

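In roots of Arabidopsis thaliana, 67 of the 37884 genes in the deposited table were lower than wild type in both lines that overexpress an ERF transcription factor and higher than wild type in the line that expresses an ERF115 repressor fusion. They were chosen by their own values. With L the log2 of a group's mean normalized count plus 1, a gene needed a wild-type mean of at least 50, an L at least 0.7 under wild type in both overexpressors, and an L at least 0.7 over wild type in the repressor line. The floor of 50 left 20834 genes, of which 1198 were lower in both overexpressors, and 67 of those 1198 were also higher in the repressor line. A further 161 genes met all 3 differences with a wild-type mean under 50 and were not taken. Since these differences chose the genes, the values against wild type below are descriptions and carry no test.

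All roots came from seedlings 4 days old, with 3 libraries in each of 4 groups. Wild type (WT) was Col-0. The line ERF115OX carried 35S:ERF115, the line ERF114OX carried 35S:ERF114, and the line ERF115-SRDX carried 35S:ERF115-SRDX, all driven by the constitutive 35S promoter. The genotype label of the ERF114OX libraries also names ERF115OX, and the titles were followed. The SRDX tag is a short repression motif that turns the transcription factor it is fused to into a dominant repressor. Whether a line stands for 1 transformation event is not given in the sources used here. ERF115 was at 34638 to 38360 normalized counts in ERF115OX and at 83518 to 88807 in ERF115-SRDX, against 4.86, 23.4 and 561 in the 3 WT libraries. ERF114 was at 44417 to 47807 in ERF114OX and at 10.7 to 35.0 in WT.

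ERF115 and ERF114 belong to the AP2/ERF family of plant transcription factors and are known for their part in stem cell renewal and regeneration of damaged root tissue. Genes annotated to the plant immune system are among the 67. In that system, receptor kinases at the cell surface recognise microbial molecules, intracellular receptors of the TIR-NBS-LRR class recognise pathogen effectors, calcium signals and transcription factors carry the response on, and salicylate and N-hydroxypipecolate act as its signalling molecules. WRKY transcription factors, which are central to that response, bind the W box, whose core is TTGAC.

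The 67 genes fell by annotation into 11 surface receptors and receptor kinases, 3 TIR-NBS-LRR proteins, 3 genes of salicylate and N-hydroxypipecolate formation, 8 of transcription and chromatin, 4 of calcium signalling, 5 transporters, 13 metabolic enzymes, 8 stress-related or otherwise annotated genes, 9 with little or no annotated role and 3 non-coding RNAs. They lay on all chromosomes, with 16, 14, 11, 9 and 17 on chromosomes 1 to 5. The W box core was read in the window from 250 bases before to 50 bases after each annotated gene start, on both strands, as TTGAC or its complement GTCAA. Sequences and starts came from a TAIR10.1 copy, and the authors' own annotation can differ from it. At least 1 match was present in 49 of the 64 protein-coding members, which is 76.6%, against 51.2% of the 21310 coding genes tested. At least 2 matches were present in 34 of 64, or 53.1%, against 18.3% of all coding genes tested.

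The 250 bases before the start of 4 members are shown as examples that hold the core several times. Each match is in capitals, and the sequence is written 5′ to 3′ along the gene's own strand. Other members differ: in the full window AT3G22060 and CIP1 held 4 matches, and FMO1, LACS1, ABCB21 and AT5G41740 held 0. CRK11 and FRK1 code for receptor-like kinases, WAKL5 for a wall-associated kinase-like protein and CYP81D8 for a cytochrome P450. CRK11, CYP81D8 and FRK1 lie on the minus strand of chromosomes 4, 4 and 2, and WAKL5 on the plus strand of chromosome 1.
CRK11: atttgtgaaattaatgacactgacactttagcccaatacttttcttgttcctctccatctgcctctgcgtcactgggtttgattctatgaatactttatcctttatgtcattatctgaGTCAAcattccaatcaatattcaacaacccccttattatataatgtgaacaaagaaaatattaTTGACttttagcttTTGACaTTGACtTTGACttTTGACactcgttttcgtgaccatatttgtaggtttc
WAKL5: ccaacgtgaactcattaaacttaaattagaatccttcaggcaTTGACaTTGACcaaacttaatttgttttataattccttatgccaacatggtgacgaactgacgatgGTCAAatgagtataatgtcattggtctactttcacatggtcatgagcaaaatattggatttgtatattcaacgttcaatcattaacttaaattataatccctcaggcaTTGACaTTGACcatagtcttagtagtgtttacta
CYP81D8: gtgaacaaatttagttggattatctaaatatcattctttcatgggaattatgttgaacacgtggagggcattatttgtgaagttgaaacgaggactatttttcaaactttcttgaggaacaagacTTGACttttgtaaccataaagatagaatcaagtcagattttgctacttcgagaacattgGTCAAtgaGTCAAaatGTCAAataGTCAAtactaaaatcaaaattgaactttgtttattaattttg
FRK1: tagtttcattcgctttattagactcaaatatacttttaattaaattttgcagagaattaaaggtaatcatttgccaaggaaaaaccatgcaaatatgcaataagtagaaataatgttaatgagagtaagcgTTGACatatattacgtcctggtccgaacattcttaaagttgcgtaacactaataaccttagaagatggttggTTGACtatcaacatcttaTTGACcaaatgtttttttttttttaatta

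In CRK11, 5 of the 6 matches began within 69 bases of the start. In CYP81D8, 4 of 5 began within 66 bases, and FRK1 had matches that began 119, 47 and 29 bases before its start. For comparison, the core was present in 64.4% of 1396 other coding genes raised in ERF115-SRDX by the same 0.7, and in 44.8% of 1042 other coding genes lowered in both overexpressors. The share in 88 coding genes of the mirror set, which were higher in both overexpressors and lower in ERF115-SRDX, was 50%. At least 2 matches were present in 29.2% of the other genes raised in ERF115-SRDX. They were present in 14.9% of the other genes lowered in both overexpressors and in 14.8% of the mirror set. Of 3 other motifs, the GCC box GCCGCC, which ERF proteins bind, was in none of the 64 windows and in 2.61% of all coding genes tested. The DRE core CCGAC was in 14.1% against 16.0%, and the G box CACGTG in 14.1% against 8.61%. The mean GC content of the windows was 31.0% in the members and 32.1% in all coding genes tested. These shares describe letters in a window and were not tested, and a match is not a binding site.

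**Figure D1:**
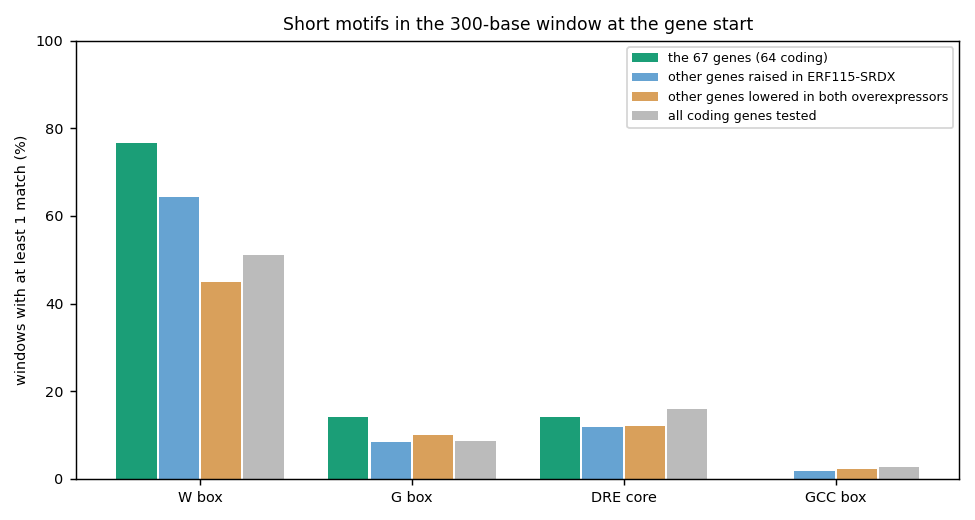
Share of windows, in percent, with at least 1 match to each of 4 short motifs, for the 64 coding members, for other genes raised in ERF115-SRDX, for other genes lowered in both overexpressors and for all coding genes tested. The W box bars stand at 76.6, 64.4, 44.8 and 51.2%, and the GCC box bar of the members is at 0.

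The median difference in L from WT over the 67 genes was -1.01 in ERF115OX and -1.40 in ERF114OX, and it was 1.97 in ERF115-SRDX, while the medians over all 23375 genes tested were -0.01 in ERF114OX and nearer to 0 in the other lines. The differences ran from -3.22 to -0.70 in ERF115OX, from -5.22 to -0.72 in ERF114OX and from 0.71 to 7.64 in ERF115-SRDX. The members' mean log2 value per library was 7.71, 7.83 and 8.09 in WT, 6.65, 6.75 and 6.80 in ERF115OX, 6.37, 6.36 and 6.36 in ERF114OX, and 10.55, 10.61 and 10.46 in ERF115-SRDX. Together the 67 genes held 0.0751 to 0.0927% of a WT library's normalized counts and 0.384 to 0.411% of an ERF115-SRDX library's. In ERF115-SRDX, 57 of the 67 were over 2-fold higher than WT and 21 were over 10-fold higher. In bulk roots, fewer cells of a type and less RNA per cell cannot be told apart.

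**Figure D2:**
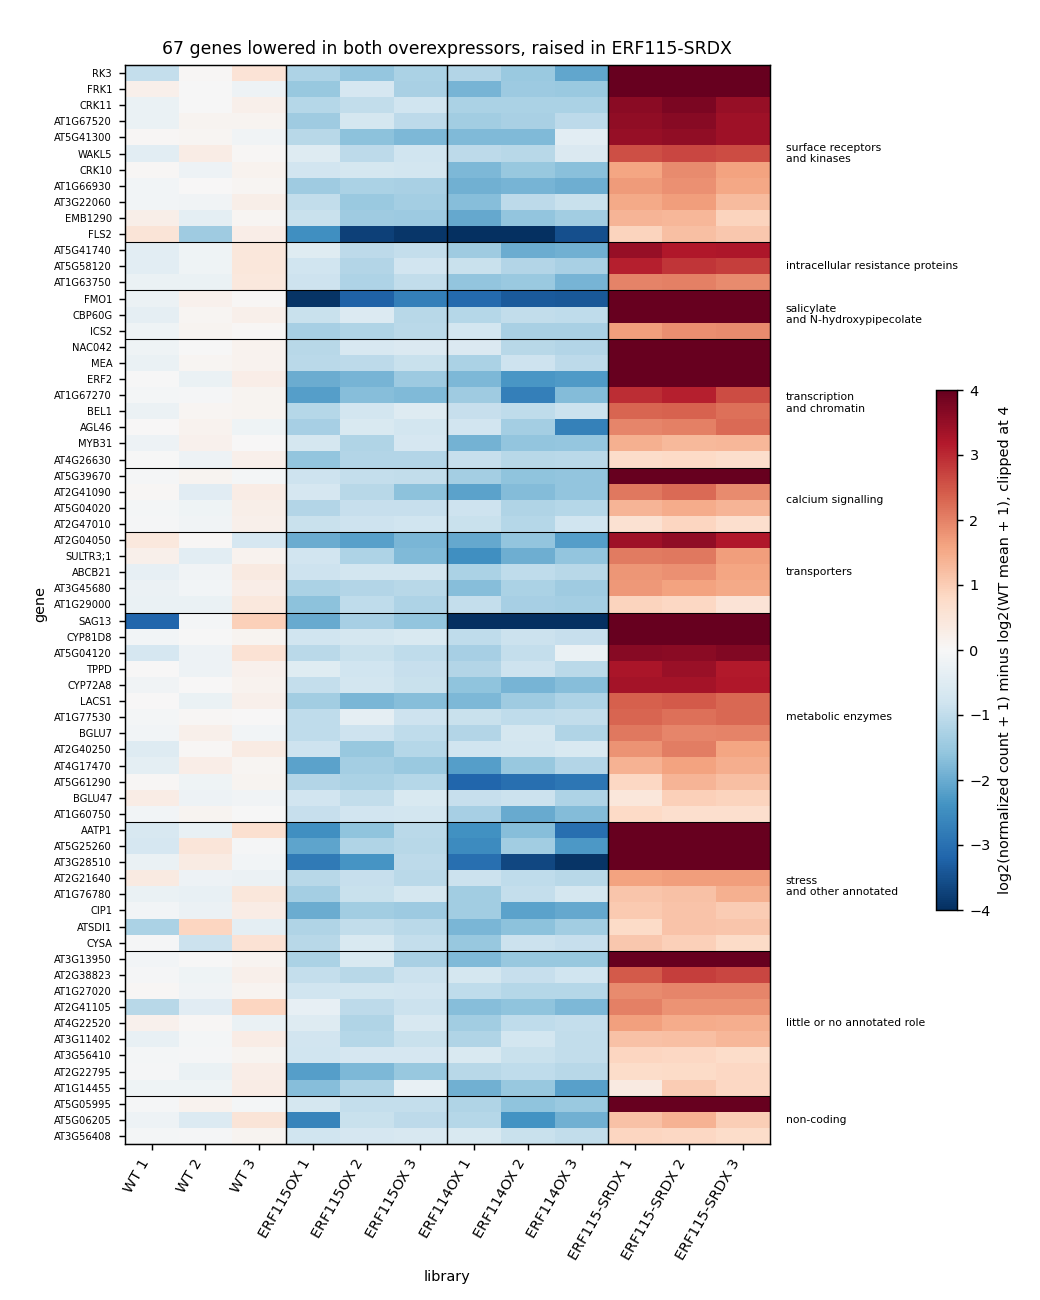
Each row is 1 of the 67 genes, grouped by annotated role, and each column 1 of the 12 libraries. Colour gives the log2(normalized count + 1) minus log2(WT mean + 1), clipped at 4 in either direction, so that blue is below WT and red above. Differences in ERF115-SRDX reached 7.64 on the L scale, and those in the overexpressors reached -5.22.

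With limma over all genes tested, the ERF115OX difference from WT passed an adjusted p of 0.05 downward in 62 of the 67, against 15.7% of all genes. The counts were 66 of 67 downward in ERF114OX, against 19.6%, and 65 of 67 upward in ERF115-SRDX, against 23.4%. The rule used these contrasts, so the counts only place the differences beside the spread between libraries. All 3 ERF115OX libraries lay below all 3 WT libraries in 63 members, against 22.4% of genes tested, and the exceptions were AT2G41105, ATSDI1, CYSA and SAG13. All 3 ERF114OX libraries lay below all 3 WT libraries in 66, against 25.8%, with AT5G04120 the exception. The ERF115-SRDX libraries lay above all WT libraries in 66, against 29.2%, with ATSDI1 the exception. The 3 line-against-WT contrasts share the same WT libraries.

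The WT libraries themselves were uneven over these genes. WT 3 was the highest of the 3 in 44 of 67 members and WT 1 the lowest in 36. WT 3 also held the 561 counts of ERF115 given above and the highest mean log2 level of 20 photosynthetic genes in WT, 15.49 against 14.89 and 14.45. Without WT 3 the same rule took 55 genes, 49 of them among the 67, and the 18 lost included CRK10, NAC042, RK3, SAG13 and CYP81D8. The part of these differences between WT libraries in the members' values was not tested.

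Markers of shoot tissue moved with the groups. The summed level of 20 leaf photosynthesis genes, with none at 0, ran between 571300.1 and 1197762 in WT, between 349814 and 475873 in ERF115OX, between 142588 and 508637 in ERF114OX, and from 11173 to 166015 in ERF115-SRDX. In ERF115-SRDX the photosynthetic mean log2 level was 8.10, 12.72 and 8.43 in the 3 libraries, and the members' mean was 10.55, 10.61 and 10.46. In ERF114OX it was 12.37, 14.23 and 14.16, and the members' mean was 6.37, 6.36 and 6.36. ERF115-SRDX 2, with the highest photosynthetic level of its group, was the highest of its group in 40 of the 67 genes and the lowest in 7. ERF114OX 1, with the lowest photosynthetic level of its group, was the highest in 26 and the lowest in 29. ERF115OX 1 had the highest photosynthetic level of its group, 14.10 against 13.58 and 13.67, and was the lowest of its group in 41 of the 67. Leaving out ERF114OX 1 and ERF115-SRDX 2 together left 65 genes under the rule, 62 of them shared with the 67. The sum of 11 stomatal and aerial epidermis markers ran from 8117 to 11985 in WT, 6048 to 6817 in ERF115OX, 2696 to 4690.1 in ERF114OX and 1976 to 3001 in ERF115-SRDX, where MUTE was at 0. The sum of 7 root hair markers was 11511 to 12922 in WT, 22490 to 25445 in ERF115OX, 19277 to 23975 in ERF114OX and 11851 to 12041 in ERF115-SRDX. Their part in the result was not tested. None of the marker genes was a member. Markers of the endodermis, a tissue that defines the root, were present throughout, with sums between 31018 and 43809 over the 12 libraries. The sum of 7 xylem markers was 14941 to 16899 in WT and 20541 to 21743 in ERF115-SRDX. That of 4 root cap markers was 1026 to 1266 in WT and 735 to 907 in ERF115-SRDX. Sums of phloem, dividing cell and meristem markers overlapped between WT and ERF115-SRDX. The part of these shifts in the members' values was not tested.

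**Figure D3:**
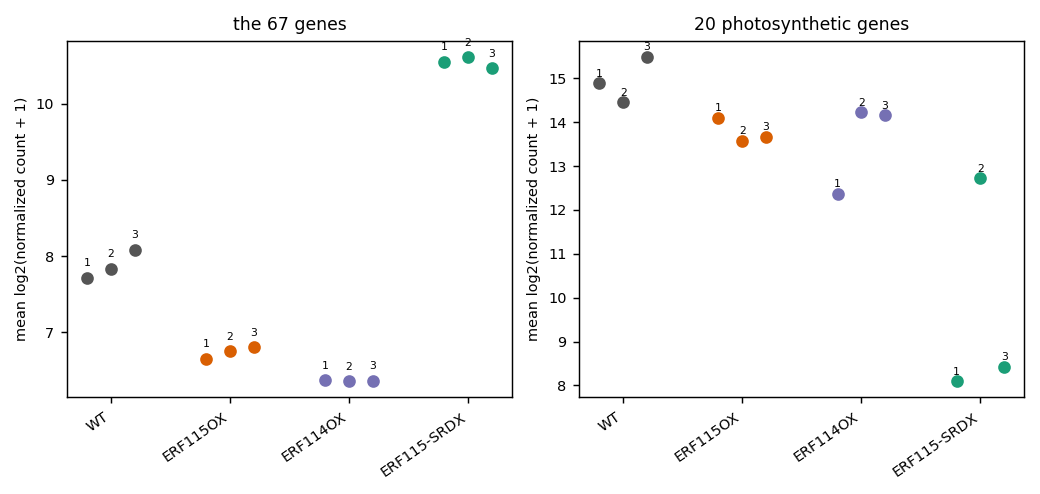
Left, mean log2(normalized count + 1) of the 67 genes in each of the 12 libraries, numbered by replicate; right, the same for 20 photosynthetic genes. ERF115-SRDX 2 is at 12.72 on the right beside 8.10 and 8.43 for the other 2 libraries of its group, and at 10.61 beside 10.55 and 10.46 on the left. WT 3 is the highest of its group in both panels, at 8.09 and 15.49, and ERF115OX 1 is the lowest of its group on the left, at 6.65, and the highest on the right, at 14.10.

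The surface receptors and kinases had median L differences of -1.23, -1.53 and 2.62 in ERF115OX, ERF114OX and ERF115-SRDX. FLS2, the receptor of bacterial flagellin, was at 284, 74.1 and 241 in WT, 35.3, 14.2 and 12.4 in ERF115OX, 5.81, 6.35 and 16.6 in ERF114OX, and 375, 458 and 419 in ERF115-SRDX. Its WT mean was 9.68-fold that of ERF115OX and 20.8-fold that of ERF114OX, and its ERF115-SRDX mean was 2.09-fold that of WT. With limma the ERF115-SRDX difference of FLS2 missed the threshold, at an adjusted p of 0.061, and without WT 2 FLS2 no longer met the rule. The ratio to ERF115OX was 15 without ERF115OX 1, and that to ERF114OX was 32.8 without ERF114OX 3. The 3 WT libraries of FLS2 spread widely but did not overlap those of any line, and the overexpressors overlapped each other. FRK1, a receptor-like kinase whose transcript is a standard marker of the flagellin response, was at 74.8, 64.4 and 56.8 in WT, 22.2, 40.7 and 25.8 in ERF115OX, 17.4, 23.3 and 22.8 in ERF114OX, and 1573, 1730.3 and 1331 in ERF115-SRDX. FRK1 was thus 23.6-fold above WT in ERF115-SRDX, and the overexpressors overlapped each other but not WT.

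RK3, an S-domain receptor kinase, had the widest gap to the repressor line among the 11 receptors. It was at 28.2, 57.6 and 80.7 in WT, 23.2, 18.3 and 22.7 in ERF115OX, 24.2, 19.1 and 12.4 in ERF114OX, and 4112, 4178 and 3691 in ERF115-SRDX, which was 72.0-fold WT. Its lowest WT library was only just above the overexpressors. CRK11, a cysteine-rich receptor-like kinase, was at 774, 921 and 1072 in WT, 417, 463 and 525 in ERF115OX, 381, 379 and 386 in ERF114OX, and 11248, 12533 and 10401 in ERF115-SRDX. Its neighbour CRK10 was at 371, 309 and 398 in WT, 212, 219.6 and 214 in ERF115OX, 104, 124 and 111 in ERF114OX, and 1080.3, 1328 and 1109 in ERF115-SRDX. In both genes no 2 groups overlapped. CRK10 and CRK11 are adjacent, annotated on opposite strands and overlapping, and EMB1290, annotated as the cysteine-rich receptor-like kinase 17, lies 7 genes farther along chromosome 4. Members of such a kinase family can share reads.

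AT1G66930, annotated as a protein kinase, was at 156, 170.5 and 174 in WT, 61.4, 68.1 and 67.2 in ERF115OX, 43.6, 45.5 and 42.5 in ERF114OX, and 545, 589 and 492 in ERF115-SRDX, with no overlap between any groups. WAKL5 was 1.71-fold and 1.86-fold lower in the overexpressors and 6.16-fold higher in ERF115-SRDX, EMB1290 was 2.36-fold and 3.18-fold lower and 2.31-fold higher, and the lectin protein kinase AT1G67520 was 2.06-fold and 2.37-fold lower and 11.7-fold higher. The receptor-kinase-related proteins AT3G22060 and AT5G41300 were 2.81-fold and 11.2-fold higher in ERF115-SRDX than in WT. AT5G41300 was at 24.2, 24.4 and 63.3 in ERF114OX, so that 1 library of that line stood near the WT range of 76.7 to 88.8.

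The 3 intracellular TIR-NBS-LRR resistance proteins are a class that triggers defence when a pathogen effector is sensed inside the cell. AT5G41740 was at 96.2, 115 and 178 in WT, 92.7, 62.0 and 66.1 in ERF115OX, 47.4, 31.8 and 33.2 in ERF114OX, and 1456, 1213 and 1241 in ERF115-SRDX. One ERF115OX library was just under the lowest WT library, and the ERF114OX libraries were below all of them. AT5G58120 was 7.56-fold higher and AT1G63750 was 3.92-fold higher in ERF115-SRDX than in WT, and their WT means were 1.87-fold and 2.02-fold those of ERF115OX.

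FMO1 had the widest opposition of the 67, taken as the smallest of its 3 differences in L. It codes for the monooxygenase that forms N-hydroxypipecolate, the mobile signal of systemic acquired resistance. FMO1 was at 64.2, 83.9 and 76.7 in WT, 4.03, 7.12 and 10.3 in ERF115OX, 7.75, 6.35 and 6.22 in ERF114OX, and 8108, 8486 and 6287 in ERF115-SRDX. WT was 10.5-fold above ERF115OX and 11.1-fold above ERF114OX, and ERF115-SRDX was 102-fold above WT. CBP60G, a calmodulin-binding transcription factor that activates salicylate formation, was at 52.5, 72.2 and 78.7 in WT, 36.3, 45.8 and 31.0 in ERF115OX, 30, 33.9 and 33.2 in ERF114OX, and 4460.1, 3668 and 3259 in ERF115-SRDX. ERF115-SRDX was 56.0-fold above WT, and WT was 1.80-fold and 2.09-fold above the overexpressors. ICS2, the minor isochorismate synthase, was at 781, 940.4 and 904 in WT, 348, 378 and 411 in ERF115OX, 528, 359 and 354 in ERF114OX, and 2778, 3164 and 3213 in ERF115-SRDX, where the overexpressors overlapped each other and lay below WT.

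**Figure D4:**
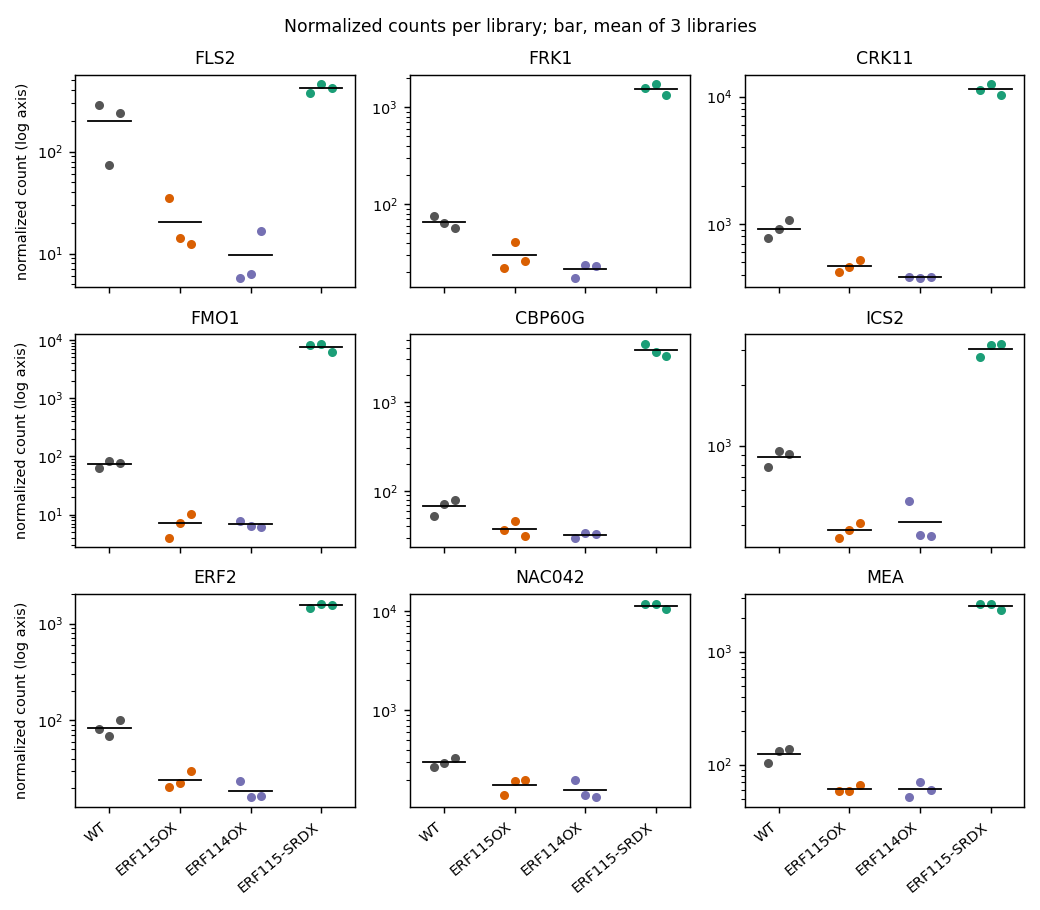
Normalized counts of FLS2, FRK1, CRK11, FMO1, CBP60G, ICS2, ERF2, NAC042 and MEA in each of the 12 libraries on a log axis, with 1 point per library and a bar at the mean of a group's 3 libraries. FMO1 spans from 4.03 in an ERF115OX library to 8486 in an ERF115-SRDX library, and in each gene shown the ERF115-SRDX points are above those of WT.

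A list of 16 salicylate and immune genes placed FMO1 and CBP60G beside the rest of the pathway. Of the 12 that were tested, 10 were not members, and limma called 9 of those 10 higher and 1 lower in ERF115-SRDX than in WT, against 23.4% and 26.6% of all genes tested, with a median log2 difference of 1.45. In ERF115OX 2 of the 10 (PAD4 and SARD1) were higher and 3 (EDS16, ALD1 and PBS3) lower, and in ERF114OX 1 (PAD4) was higher and 3 (EDS1, ALD1 and PBS3) were lower. Over all genes tested, 16.4% were higher and 15.7% lower in ERF115OX, and 17.5% were higher and 19.6% lower in ERF114OX, so these few calls of 10 are near the background. All of these calls for single genes held in the 21 other settings tried. The main isochorismate synthase EDS16 was at 544 ± 60.8 (SD, n = 3) in WT, 384 ± 30.8 in ERF115OX, 480 ± 61.4 in ERF114OX, with 1565 ± 150.4 in ERF115-SRDX. EDS5, which exports the salicylate precursor from plastids, rose from 1569.6 ± 139 in WT to 6040.3 ± 492 in ERF115-SRDX, and was 1483 ± 104 and 1457 ± 114 in ERF115OX and ERF114OX. PAD4, a lipase-like regulator of immunity, was called higher in all 3 lines, by 0.42 ± 0.09 (SE), 0.39 ± 0.09 and 1.66 ± 0.09 on the log2 scale.

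The pathway to N-hydroxypipecolate was split. ALD1, which catalyses the first step to pipecolate, was at 184 ± 13.9 in WT, 103 ± 20.8 in ERF115OX, 54.2 ± 8.48 in ERF114OX, with 61.7 ± 3.96 (SD, n = 3) in ERF115-SRDX. With limma it was lower than WT in all 3 lines, by -0.85 ± 0.18 (SE), -1.76 ± 0.18 and -1.56 ± 0.18, with an adjusted p of 1.2e-05 in ERF115-SRDX. FMO1, which acts on pipecolate, was 102-fold higher than WT in that line. PBS3, which conjugates isochorismate on the way to salicylate, had the pattern of the 67 genes with a WT mean of 24.4 ± 12.5, under the floor of 50, and was at 2.71 ± 1.14, 0.692 ± 1.2 and 394 ± 116 in ERF115OX, ERF114OX and ERF115-SRDX. PR1, the usual reporter of salicylate signalling, was listed at 0 in all 12 libraries.

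Among transcription and chromatin genes, ERF2, an ethylene-responsive activator of the same AP2/ERF family, was at 81.7, 68.3 and 99.6 in WT, 20.1, 22.4 and 30 in ERF115OX, 23.2, 15.9 and 16.6 in ERF114OX, and 1456, 1596 and 1560.0 in ERF115-SRDX. The overexpressors overlapped each other and lay 3.44-fold and 4.48-fold below WT, and ERF115-SRDX lay 18.5-fold above. NAC042, a NAC factor linked to ageing and stress tolerance, was at 267, 297 and 332 in WT, 139, 192 and 199 in ERF115OX, 198, 139 and 133 in ERF114OX, and 11768, 11684 and 10515 in ERF115-SRDX. The repressor line was 37.9-fold above WT, and the overexpressors 1.69-fold and 1.91-fold below it.

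MEA, the Polycomb histone methyltransferase known from the endosperm, was at 104, 131 and 137 in WT, 58.4, 59.0 and 66.1 in ERF115OX, 51.3, 69.9 and 60.2 in ERF114OX, and 2637, 2648 and 2362 in ERF115-SRDX, which was 20.5-fold WT. BEL1, a homeodomain factor known from ovule development, was 4.92-fold higher in ERF115-SRDX and 1.73-fold and 1.92-fold lower in the overexpressors. The zinc-finger protein AT1G67270 was at 100.1, 101 and 114 in WT, 22.2, 31.5 and 30 in ERF115OX, 38.7, 14.8 and 31.1 in ERF114OX, and 823, 919 and 646 in ERF115-SRDX. The MADS-box gene AGL46 and MYB31 were 4.29-fold and 2.56-fold higher in ERF115-SRDX. AT4G26630, a DEK-domain chromatin protein, had the most reads of the 67 in WT, at 5770.1, 5032 and 6676, and stood at 1969 to 2565 in ERF115OX, 2728 to 3049 in ERF114OX and 9524 to 10024 in ERF115-SRDX.

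The calcium genes and transporters are the links that carry a stimulus into the cell or move compounds across membranes. AT5G39670, an EF-hand calcium-binding protein, was at 62.2, 68.3 and 60.8 in WT, 35.3, 32.5 and 32.0 in ERF115OX, 24.2, 20.1 and 20.7 in ERF114OX, and 1758, 1554 and 1526 in ERF115-SRDX. The non-coding AT5G05995 overlaps it on the opposite strand and had nearly the same values, 61.2, 69.3 and 59.8 in WT and 1760.5, 1557 and 1526 in ERF115-SRDX. The same holds for AT3G56408 and AT3G56410, at 2072 and 2059 in WT 1 and at 3901 and 3887 in ERF115-SRDX 1, so reads of the partners cannot be told apart and each pair may be 1 signal. The non-coding AT5G06205 overlaps CIP1 on the opposite strand as well. In all, 27 of the 67 overlap another annotated gene, 26 of them on the opposite strand. The calcium-binding AT2G41090 and the uncharacterized AT2G41105 lie 2 genes apart. AT2G41105 overlaps the calmodulin-like gene TCH3 on the opposite strand, so their reads may be shared. TCH3 missed the rule with -0.67 in ERF115OX, where AT2G41105 was at -0.71. The calmodulin-binding AT5G04020 and the kinase AT2G47010 were 2.64-fold and 1.64-fold above WT in ERF115-SRDX.

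The MATE efflux carrier AT2G04050 was at 122, 93.6 and 55.8 in WT, 22.2, 19.3 and 24.8 in ERF115OX, 21.3, 29.6 and 18.7 in ERF114OX, and 947, 1060 and 847 in ERF115-SRDX. The overexpressors overlapped each other and lay 4.09-fold and 3.89-fold below WT. The sulfate transporter gene SULTR3;1, the auxin transporter gene ABCB21, the major facilitator AT3G45680 and the heavy-metal domain gene AT1G29000 were 3.98-fold, 3.31-fold, 3.1-fold and 1.70-fold above WT in ERF115-SRDX.

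Of the metabolic enzymes, SAG13, a short-chain dehydrogenase gene used as a marker of senescence, was at 5.83, 57.6 and 118 in WT, 14.1, 23.4 and 19.6 in ERF115OX, 1.94, 0 and 0 in ERF114OX, and 12935, 12644 and 11199 in ERF115-SRDX. WT and ERF115OX overlapped, and the ERF114OX value rests on 2 reads in 1 library, so no fold is given for that line. ERF115-SRDX was 203-fold above WT, and 387-fold without WT 3. WT was 3.17-fold above ERF115OX, and 1.66-fold without WT 3. CYP81D8, a P450 known from responses to xenobiotics, was at 636, 668 and 742 in WT, 389, 419 and 447 in ERF115OX, 339, 373 and 356 in ERF114OX, and 16209, 18180 and 15191 in ERF115-SRDX. CYP81D8 was 24.2-fold above WT in the repressor line but only just inside the rule in ERF115OX, at -0.70 on the L scale. LACS1, a long-chain acyl-CoA synthetase of cuticle lipid formation, was at 1328, 1099 and 1515 in WT, 501, 368 and 399 in ERF115OX, 375, 495 and 561 in ERF114OX, and 6831, 7194 and 6443 in ERF115-SRDX. The alpha/beta-hydrolase AT4G17470 was 3.22-fold and 3.07-fold lower in the overexpressors and 2.86-fold higher in ERF115-SRDX.

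CYP72A8 and the trehalose-phosphate phosphatase gene TPPD were 9.75-fold and 9.88-fold above WT in ERF115-SRDX, and the phosphoglycerate mutase family gene AT5G04120 was 12.6-fold above it. The beta-glucosidase genes BGLU7 and BGLU47, the esterase AT2G40250, the O-methyltransferase AT1G77530, the flavin-binding monooxygenase AT5G61290 and the oxidoreductase AT1G60750 were between 1.64-fold and 4.85-fold above it. Among the stress-related genes, AATP1, an AAA-ATPase, was at 52.5, 66.3 and 127 in WT, 14.1, 26.4 and 38.2 in ERF115OX, 14.5, 24.4 and 9.34 in ERF114OX, and 8809, 9697 and 7988 in ERF115-SRDX. The repressor line was 108-fold above WT. The ATPase-domain gene AT3G28510 was at 64.2, 96.6 and 71.7 in WT, 10.1, 14.2 and 37.2 in ERF115OX, 8.71, 5.29 and 4.15 in ERF114OX, and 1640, 1815 and 1536 in ERF115-SRDX. AT5G25260, of the SPFH membrane protein family, was at 34.0, 78.0 and 52.8 in WT, 12.1, 23.4 and 24.8 in ERF115OX, 8.71, 20.1 and 10.4 in ERF114OX, and 3572, 3161 and 2797 in ERF115-SRDX. In none of these 3 genes did a line overlap WT.

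CIP1, whose product interacts with the photomorphogenesis repressor COP1, was at 3185, 2934 and 4288 in WT, 882, 1308 and 1270 in ERF115OX, 1313, 792 and 832 in ERF114OX, and 7113, 7707 and 6963 in ERF115-SRDX. The sulfur-deficiency gene ATSDI1, the oxidative stress marker AT2G21640, the HSP20-like AT1G76780, the cystatin gene CYSA and CIP1 were 1.93-fold to 3.17-fold above WT in ERF115-SRDX. ATSDI1 was at 116, 506 and 209 in WT and 477, 606 and 601 in ERF115-SRDX, which overlapped. Its ratio of ERF115-SRDX to WT was 2.03, and 3.45 without WT 2, and that of WT to ERF115OX was 2.12, and 1.24 without WT 2. The 9 genes of little annotated role had median L differences of -0.93, -1.10 and 1.53. AT3G13950 was the one of them with the widest difference in ERF115-SRDX, 26.1-fold, while AT1G14455, AT1G27020, AT2G22795, AT2G38823, AT2G41105, AT3G11402, AT3G56410 and AT4G22520 were 1.71-fold to 6.24-fold above WT. For AT2G41105 the ratio of WT to ERF115OX was 1.64, and 0.984 without WT 3.

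The rule set no threshold on the difference between the overexpressors, so that contrast was fitted. The values of both lines did choose the genes, however. The shares over all genes tested are therefore not a matched background. No share was taken over the 1198 genes lowered in both overexpressors. The members were lower in ERF114OX than in ERF115OX in 53 of 67, with a median ERF115OX minus ERF114OX log2 difference of 0.23, against 0.00 over all genes tested, of which 51.1% were above 0. With limma, 13 of the 67 passed an adjusted p of 0.05, against 6.90% of all genes tested, and 23 had an unadjusted p under 0.05. Of the 13, 12 were higher in ERF115OX, against 4.77% of all genes, and 1 was lower, against 2.13%. The labels do not state that replicates were grown separately, so these p-values reflect differences among the sequenced libraries alone.

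AT5G61290, a flavin-binding monooxygenase, was at 105, 98.6 and 106 in ERF115OX and 25.2, 28.6 and 31.1 in ERF114OX, a difference of 1.84 ± 0.15 (SE) with an adjusted p of 4.3e-05. CYP72A8 was at 469, 543 and 489.7 in ERF115OX and 295, 252 and 281 in ERF114OX, a difference of 0.86 ± 0.09 with an adjusted p of 0.00015. For CRK10, whose values are given above, the difference was 0.93 ± 0.12 with an adjusted p of 0.00068. All 3 ERF115OX libraries were above all 3 ERF114OX libraries in each of these genes. AT1G60750, an oxidoreductase, was at 976, 1095 and 1112 in ERF115OX and 738, 459 and 566 in ERF114OX, a difference of 0.88 ± 0.13 with an adjusted p of 0.0024. AT2G22795, an uncharacterized gene, went the other way, at 835, 1101 and 1321 in ERF115OX and 1775, 1885 and 1787 in ERF114OX, a difference of -0.77 ± 0.15 with an adjusted p of 0.0096. These 5 calls held in all 21 other settings tried.

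The other 8 calls were less steady. AT1G27020 differed by 0.34 ± 0.07 and AT1G66930 by 0.57 ± 0.12, with adjusted p of 0.010 and 0.014, and these were lost in 1 and 2 of 21 settings. MYB31 differed by 0.80 ± 0.18 with an adjusted p of 0.020 and was lost in 4 settings. SAG13 differed by 3.78 ± 0.79 with an adjusted p of 0.015 and was lost in 5, and its size depends on the 1 added to each count because ERF114OX was near 0. AT5G39670 and its overlapping partner AT5G05995 differed by 0.60 ± 0.14 and 0.56 ± 0.15, with adjusted p of 0.021 and 0.046, and were lost in 5 and 16 settings. AT5G41740 differed by 0.96 ± 0.23 with an adjusted p of 0.030 and was lost in 7, and AT3G28510 differed by 1.45 ± 0.39 with an adjusted p of 0.043 and was lost in 13. In each of these 8 the ERF115OX values were higher. FMO1 gave a difference of -0.0021 ± 0.26 with an adjusted p of 0.998, and FLS2 one of 1.02 ± 0.52 that missed the threshold.

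**Figure D5:**
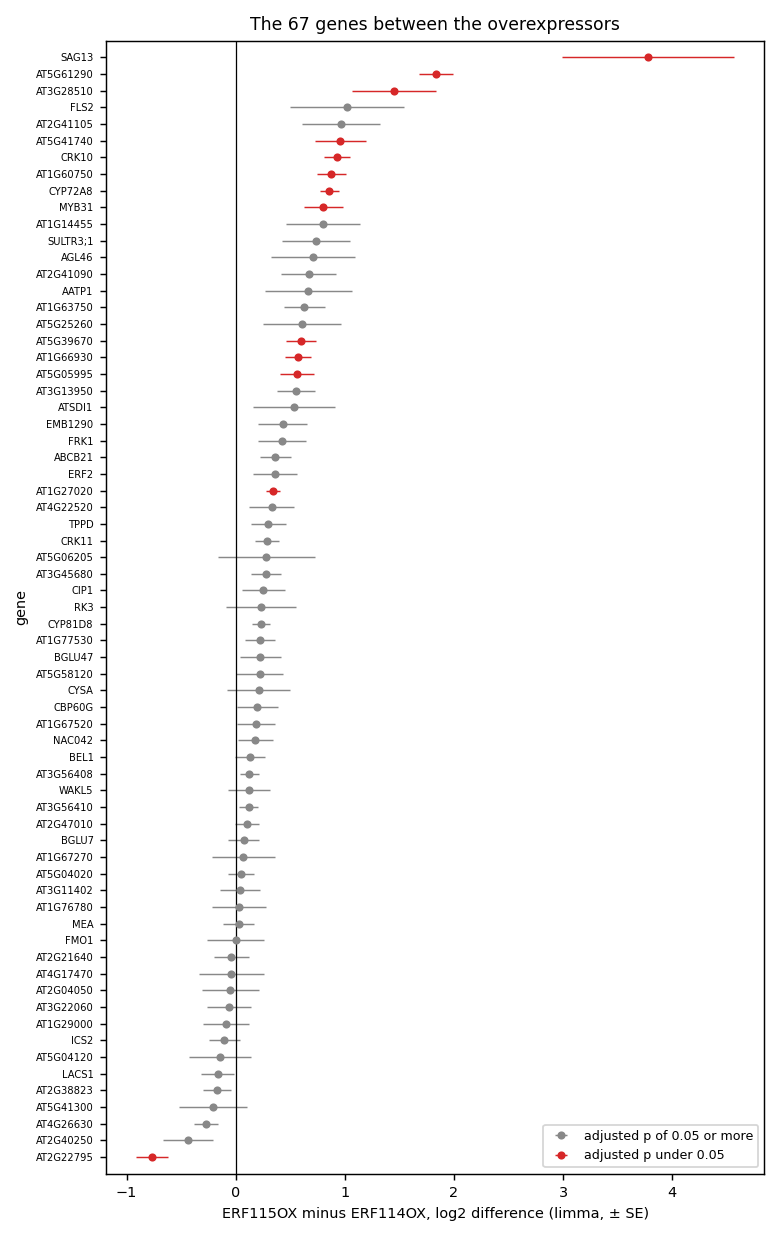
Difference between ERF115OX and ERF114OX in log2(normalized count + 1) for each of the 67 genes, with the limma standard error as a bar, red where the adjusted p was under 0.05. Of the genes, 53 lie to the right of 0, and AT2G22795 at -0.77 is the one red point to the left.

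At the edges of the rule, the genes just inside in ERF115OX were CYP81D8, AT3G56408, AT2G41105 and AT3G56410, all between -0.71 and -0.70, and those just outside were AT2G26440 at -0.70, AT5G01542 and LECRKA4.1 at -0.68 and TCH3 at -0.67. In ERF114OX the nearest inside were AT2G40250 at -0.72, AT5G04120 and AT2G38823 at -0.79 and AT3G56410 at -0.83, and the nearest outside were AT3G28580 at -0.68, AT4G14060 at -0.64, AT2G31860 at -0.62 and AT5G42830 at -0.59. In ERF115-SRDX they were AT1G60750 and AT2G47010 at 0.71, AT4G26630 at 0.74 and AT1G14455 at 0.76 inside, and AT1G29740 and AT5G55660 at 0.65, TRM30 at 0.63 and AT4G02650 at 0.62 outside. The lowest WT means inside were those of SULTR3;1, AT5G25260, RK3 and AT4G17470, from 51.7 to 56.9, and the highest outside were those of AT5G24640, CSLD6, AT5G02570 and GolS2, from 44.8 to 46.5.

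The 5 genes outside the set whose log2 values followed the members' mean most closely over the 12 libraries were AT3G11720, ABCC2, AT4G22530, AT1G61370 and ABCC3, with Pearson's r from 0.993 to 0.994. AT4G22530 overlaps the member AT4G22520 on the opposite strand, so their reads may be shared. The 12 points are groups of 3 libraries that differ strongly between groups, so r describes mainly the order of the groups. In both overexpressors the steps of these 5 genes from WT were smaller than the 0.7 of the rule. In ERF115-SRDX their steps were under the members' median of 1.97, but some were larger than those of many members. AT1G61370, for example, was at 460 in WT and 1416 in ERF115-SRDX. ABCC3, a vacuolar ABC transporter gene, was at 7365 ± 134 in WT, 5805 ± 151 in ERF115OX, 4711 ± 72.1 in ERF114OX, with 17269 in ERF115-SRDX.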

How the data were processed

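Messenger RNA of 12 libraries, 3 in each of 4 groups, was analysed, with groups taken from the titles. The authors deposited normalized counts, a signal in which each gene's reads are divided by the library's size factor. The submitters' processing notes list DESeq2, HISAT2 2.2.1, Trimmomatic 0.39, SAMtools 1.11 and, from Subread 2.0.1, featureCounts. No source used here names the build, annotation or strand setting, and coordinates are left out. Totals were 46168145 to 50425825 normalized counts per library, and the smallest value above 0 was 0.968 to 1.06.

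The members, gene lists, motifs and tests were chosen with earlier results of these data known. Named are the 12 members with the widest opposition, the 5 with the highest WT mean, receptors, regulators and hormone genes, members called between the overexpressors, the 4 genes on either side of each threshold, neighbouring members, and the 5 most similar other genes. A list of 16 salicylate and immune genes was compared, and so were 12 other lists of pathway genes, which held no member. Marker lists of cell types served to describe the libraries.

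Genes with a mean of at least 10 (23375) were fitted in limma 3.58.1 under R 4.3.3 on log2(normalized count + 1) with a trended variance over all 4 groups, two-sided, with Benjamini-Hochberg adjustment over all of them. The added 1 understates changes of genes with few reads. The fit was tested on simulated data. Alternatives were pseudocounts of 0.5 and 4, other filters, TMM and quantile scaling, other rule thresholds, each library left out, a replicate block, and a fit restricted to the compared groups. Names and sequences came from TAIR10.1. Python 3.11.15 made the tables and figures.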

Additional observations from a re-analysis of the deposited data

Results flagged for a closer look

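The ERF115OX minus ERF114OX difference was past the test's threshold in 13 of the 67 genes, against 6.9% of all genes tested. The values of both lines helped choose the genes, so that share is not a matched background. On the log2 scale with limma, 12 were higher in ERF115OX and 1 lower, against 4.77% and 2.13% of all genes tested. The calls of AT5G05995 and AT3G28510 were lost in 16 and 13 of 21 other settings, while those of AT5G61290, CYP72A8 and CRK10 held in all 21. The differences were 3.78 in SAG13, 1.84 in AT5G61290, 1.45 in AT3G28510, 0.96 in AT5G41740, 0.93 in CRK10, 0.88 in AT1G60750, 0.86 in CYP72A8, 0.80 in MYB31, 0.60 in AT5G39670, 0.57 in AT1G66930, 0.56 in AT5G05995 and 0.34 in AT1G27020. The difference was -0.77 in AT2G22795. SAG13 was at 0 in 2 ERF114OX libraries, and AT3G28510 was at 4.15 to 8.71 in ERF114OX. AT5G39670 and AT5G05995 overlap on opposite strands, and CRK10, AT5G61290 and AT1G66930 also overlap a gene on the opposite strand, so their reads may be shared.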

How the results depend on the processing

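The number of genes that met the rule depended on its thresholds. It was 101 at a WT mean of at least 20, 140 at a difference of 0.5 and 30 at a difference of 1, against 67. It was 48 at a WT mean of at least 100, 70 with TMM scaling and 51 with quantile normalization, and it ran from 55 to 72 with single libraries left out, 55 without WT 3. The genes themselves also changed. Without WT 2 the rule again took 67 genes, 54 of them among the main 67 and 13 not. Without WT 1 it took 72, 59 of them among the main 67 and 13 not. The members called between ERF115OX and ERF114OX numbered 8 in a fit of only those groups, against 13, and 6 to 14 with single libraries left out. They were 6 without ERF115OX 2, and 8 without ERF115OX 3, ERF114OX 2 or ERF114OX 3. Calls over all genes tested fell as well, from 1613 to 917 in the fit of only those groups. All-gene calls were 600 without ERF115OX 2, and 887, 841 and 922 without ERF115OX 3, ERF114OX 2 and ERF114OX 3. Member counts against WT ran from 56 to 64 in ERF115OX, 64 to 66 in ERF114OX and 64 to 67 in ERF115-SRDX with libraries left out. Calls over all genes tested, in either direction, ran from 5482 to 7796, 6485 to 9006 and 10377 to 11970. In the list of salicylate and immune genes, 1 non-member was higher in ERF114OX than in WT, and 2 were in 3 of 21 settings. None of the called single-gene differences that were followed through the settings changed sign. Differences that were not called, such as that of FMO1 between the overexpressors, were not followed. The cause of these changes was not tested, apart from the rule thresholds themselves.

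Deviations of same-numbered libraries from their group means correlated between -0.28 and 0.44 over genes. Differently numbered libraries were not compared, so these values do not settle whether replicate numbers pair the libraries. With the replicate number as a block, 11 members were called between the overexpressors, and 62, 66 and 64 against WT in ERF115OX, ERF114OX and ERF115-SRDX. The calls over all 23375 genes tested, in either direction, were 1490 between the overexpressors, and 7192, 8400 and 11562 against WT.

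Count tests with edgeR or DESeq2 were planned for reads recovered from the deposited values and were not run. In each library at most 1 value was off a whole multiple of the smallest value above 0. In 4 libraries, however, that smallest value lay so near 1 that it was treated as possible rounding, and whole reads were not claimed. Genes of few reads, such as SAG13 in ERF114OX, are limited by depth. With 3 libraries a group, small differences between the overexpressors can be missed. The setting without ERF114OX 1 and ERF115-SRDX 2, chosen after seeing the data, called 12 members between the overexpressors, and 1338 of all 23375 genes tested.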

Other observations

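Outside the salicylate and immune list, 12 lists of pathway genes held none of the 67, and their counts of limma calls against WT are given as values. The shares of all genes tested that were higher and lower were 16.4% and 15.7% in ERF115OX, 17.5% and 19.6% in ERF114OX, and 23.4% and 26.6% in ERF115-SRDX. Of 15 ethylene genes tested, 1 was higher and 7 lower in ERF115OX, 1 and 7 in ERF114OX, and 5 and 2 in ERF115-SRDX. For 12 jasmonate genes, the calls were 0 higher and 3 lower in ERF115OX, 0 and 5 in ERF114OX, and 4 and 4 in ERF115-SRDX. With single libraries left out, the lower jasmonate calls ran from 1 to 6 in each overexpressor, and counts of other lists also moved. Of 10 camalexin and indolic glucosinolate genes tested, 2 were higher and 1 lower in ERF115OX, 0 and 3 in ERF114OX, and 7 and 0 in ERF115-SRDX. For 5 aliphatic glucosinolate genes, the calls were 1 higher and 0 lower in ERF115OX, 0 and 5 in ERF114OX, and 1 and 3 in ERF115-SRDX. Of 9 phosphate response genes tested, 2 were higher and 1 lower in ERF115OX, 3 and 2 in ERF114OX, and 3 and 3 in ERF115-SRDX. For 14 iron and coumarin genes, the calls were 4 higher and 2 lower in ERF115OX, 4 and 7 in ERF114OX, and 5 and 2 in ERF115-SRDX. Of 6 nitrate response genes tested, 5 were higher and 1 lower in ERF115OX, 1 and 1 in ERF114OX, and 1 and 3 in ERF115-SRDX. For 7 abscisic acid and drought genes, the calls were 0 higher and 0 lower in ERF115OX, 2 and 1 in ERF114OX, and 3 and 4 in ERF115-SRDX. Of 8 auxin genes tested, 1 was higher and 3 lower in ERF115OX, 1 and 2 in ERF114OX, and 3 and 4 in ERF115-SRDX. For 9 type-A cytokinin response genes, the calls were 3 higher and 1 lower in ERF115OX, 4 and 2 in ERF114OX, and 2 and 5 in ERF115-SRDX. Of 5 triterpene cluster genes tested, 1 was higher and 2 lower in ERF115OX, 2 and 2 in ERF114OX, and 4 and 1 in ERF115-SRDX. For 8 flavonoid and anthocyanin genes, the calls were 5 higher and 2 lower in ERF115OX, 5 and 2 in ERF114OX, and 1 and 3 in ERF115-SRDX. Where a count was 0, limma at an unadjusted p under 0.05 also gave 0, except for 1 camalexin and indolic glucosinolate gene higher in ERF114OX and 1 aliphatic glucosinolate gene lower in ERF115OX.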
